A study of Sminthopsis crassicaudata with 9 samples.

Results

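The neurotransmitter receptor genes of the newborn fat-tailed dunnart (Sminthopsis crassicaudata) face are described here by their transcript levels and by the histone marks around them. They were chosen by gene symbol alone, as every row of the count table named for a glutamate, GABA, glycine, serotonin, dopamine, adrenergic or muscarinic acetylcholine receptor, and they were 73 of 14169 genes with a symbol and of 21703 gene models in all. The dunnart is a small marsupial whose young are born at a very early stage. Craniofacial tissues were taken on the day of birth, less than 24 hours after it, and were all untreated. By the labels, chromatin came from pools of 26 heads (replicate 1) and 27 heads (replicate 2), a total that differs from the number of young in the methods, with an immunoprecipitation for H3K4me3, an immunoprecipitation for H3K27ac and an input control from each. RNA came from faces of the same age in 3 libraries (FP1, FP2 and FP3), each a pool of 2 young. There was a single condition, so values were described per library or replicate and no test between groups was made.

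Neurotransmitter receptors are either ion channels that open when a transmitter binds, built from several subunits encoded by a gene family, or receptors that act through G proteins. Most are known from the synapses of the brain, while others serve nerves, glands, vessels and muscle outside it. H3K4me3 is typical of gene starts, including starts of genes that are held ready but not transcribed, and H3K27ac is typical of active starts and enhancers.

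The RNA libraries held 17419099, 16358621 and 16096971 counts assigned to genes in FP1, FP2 and FP3. The receptor genes took 5594, 4130 and 3176 of these counts, or 0.0321%, 0.0252% and 0.0197%. Levels are given as TPM, a measure of transcript abundance that corrects a count for exon length and library total. Since the samples were bulk tissue, fewer cells of a type and less RNA per cell cannot be told apart. Of pan-neuronal markers, 11 of 13 measured genes were above 1 TPM in all 3 libraries, a share not far from that of all genes with a symbol (75.3%), the list summed to 163 to 189 TPM, and NEFL and NEFM had no count. Olfactory neuron markers were at 4 of 4, with OMP at 124 ± 33.7 TPM (SD, n = 3), and markers of skeletal muscle, smooth muscle and endothelium at 4 of 4 each, whereas retina markers were at 0 of 5, with RAX and CRX at 0 counts.

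Few receptor genes were expressed in the newborn face. Above 1 TPM in all 3 libraries were 13 of 73 receptor genes, or 17.8%, against 75.3% of all genes with a symbol. The median of mean TPM was 0.318 over the receptor genes, compared with 12.8 over genes with a symbol. A further 5 genes passed 1 TPM in some libraries only, and 55 passed it in none. No count in any library was found for 7 receptor genes (9.59%), against 6.79% of genes with a symbol, and 24 had fewer than 10 counts in every library, so that differences among these low genes were not detectable at this depth. The summed level of all 73 was 167, 158 and 114 TPM in FP1, FP2 and FP3, and the 2 highest genes, GRIN2D and GABBR1, supplied 56.4%, 43.9% and 43.9% of it.

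**Figure D1:**
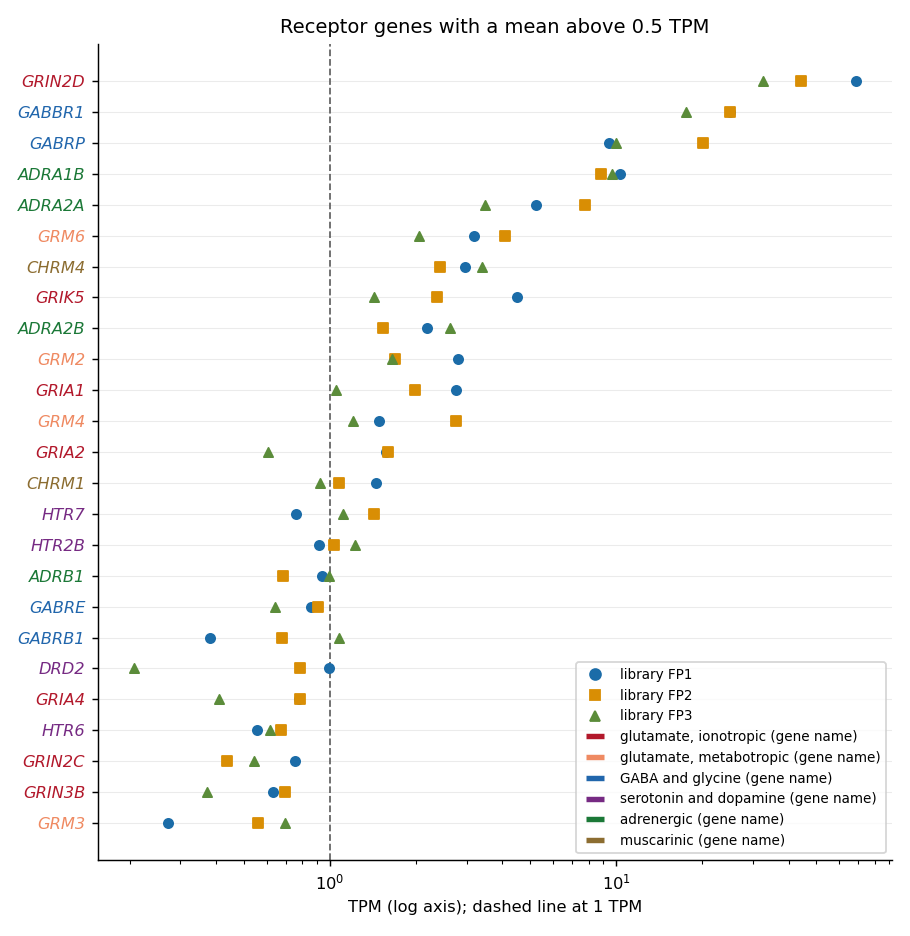
Level in TPM (log axis) of 25 receptor genes whose mean was above 0.5 TPM, with a point per RNA library and the gene name coloured by transmitter family. The 12 genes down to GRM4 lie right of the dashed line at 1 TPM in all 3 libraries, with GRIN2D between 32.6 and 69.0 TPM, and the next 4 straddle it.

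Among the ionotropic glutamate receptors, the NMDA receptor subunit GRIN2D stood far above the rest. GRIN2D, known in mammals as a subunit of embryonic and early postnatal brain, had 69.0, 44.4 and 32.6 TPM in FP1, FP2 and FP3 (48.7 ± 18.6, SD, n = 3), from 2219, 1174 and 942 counts. It was the highest of all receptor genes and ranked 2921 of the 14158 genes with a symbol whose expression was measured. Its gene model lies on scaffold 210 of the study's dunnart assembly, from 368696 to 384259 on the minus strand, and overlaps no other model. GRIN1, the subunit that NMDA receptors require, had 0.921, 0.116 and 0.0177 TPM, from 58, 6 and 1 counts. The level of GRIN2D was thus not matched by that of its usual partner in any library. GRIN2B, GRIN2C, GRIN3A and GRIN3B, the other NMDA subunits measured, had means of 0.0251 to 0.578 TPM.

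The kainate receptor subunit GRIK5, which forms channels only with other kainate subunits, was expressed at 4.52, 2.36 and 1.42 TPM (2.76 ± 1.59). Those it can join were much lower: GRIK1, GRIK2 and GRIK3 had means of 0.0228, 0.108 and 0.225 TPM, and GRIK4, of the same class as GRIK5, had 0.416 TPM. GRIA1, an AMPA receptor subunit of fast excitatory synapses, had 2.75, 1.98 and 1.05 TPM (1.93 ± 0.851). GRIA2, the AMPA subunit that limits calcium entry, fell short of the limit in FP3 alone, with 1.57, 1.59 and 0.609 TPM, and GRIA4 averaged 0.658 TPM. GRID1, a delta receptor that organises synapses, averaged 0.358 TPM. In all, 3 of these 16 ionotropic genes were expressed, 1 each among AMPA, kainate and NMDA subunits.

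Of 7 metabotropic glutamate receptors, which act through G proteins, 3 were expressed, all at low levels. GRM6, known as the receptor of ON bipolar cells of the retina, had 3.19, 4.08 and 2.05 TPM. GRM2, a presynaptic receptor, had 2.80, 1.68 and 1.65 TPM, and GRM4, another presynaptic receptor, had 1.49, 2.76 and 1.20 TPM. The retina markers beside it summed to 0.0321, 0.401 and 0.663 TPM, and their part in its level was not tested. The start of GRM6 lies 459 bp from that of an unnamed gene, and its model overlaps ZWINT on the other strand, where counting by strand separates the reads. GRM3, GRM5, GRM7 and GRM8 had means between 0.0356 and 0.508 TPM.

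Of the 17 GABA-A receptor subunits, which form the chloride channels of inhibitory synapses, GABRP was the only one expressed above 1 TPM in all 3 libraries. GABRP encodes the pi subunit, known in human and rodents from epithelia such as uterus rather than from brain, and had 9.45, 20.0 and 9.94 TPM (13.1 ± 5.98). The highest of the other 16 were GABRE, with 0.857, 0.906 and 0.643 TPM, and GABRB1, with 0.381, 0.678 and 1.08 TPM. The alpha subunits GABRA2, GABRA3, GABRA4, GABRA5 and GABRA6, which help to form the GABA site, had means of 0 to 0.386 TPM. GABRB2 (beta), GABRG1 (gamma), GABRD (delta), GABRQ (theta), and GABRR1 and GABRR2 (rho, known from retina) had means between 0 and 0.350 TPM. Most GABA-A channels of the brain are built of alpha, beta and gamma subunits, and no gene of these 3 kinds was above the limit in all libraries.

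GABBR1, a subunit of the metabotropic GABA-B receptor that binds GABA itself, was the second highest receptor gene. It had 25.0, 25.0 and 17.6 TPM (22.5 ± 4.30), from a model on scaffold 115, from 559871 to 587356. Among the glycine receptor subunits, channels of the spinal cord and brainstem, GLRA1 and GLRA2 (alpha) had no count and GLRB (beta) had 0.345, 0.709 and 0.177 TPM.

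None of 13 serotonin and 5 dopamine receptors was expressed in all libraries. The 2 highest serotonin receptors lay at the limit: HTR7, which raises cyclic AMP, had 0.757, 1.42 and 1.11 TPM, and HTR2B, known from heart valves and smooth muscle, had 0.913, 1.04 and 1.22 TPM. HTR6, a receptor of forebrain neurons, had 0.554, 0.673 and 0.617 TPM, close together but from 6 counts in each library. HTR1A, HTR1B, HTR1D and HTR1E, which lower cyclic AMP, had means of 0.0401 to 0.399 TPM, and the ion channel subunits HTR3A and HTR3B had 0.223 and 0.208 TPM. HTR1A rested on FP3, with 21 of its counts there, against 2 in FP1 and 3 in FP2. All 11 counts of HTR2A were also in FP3. HTR4 averaged 0.0522 TPM, and HTR2C and HTR5A had no count. Among dopamine receptors, DRD2, known from striatum, pituitary and olfactory bulb, was the highest with 0.988, 0.788 and 0.206 TPM, while DRD1, DRD3, DRD4 and DRD5 averaged 0.106 to 0.312 TPM.

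Of the alpha adrenergic receptors, which bind adrenaline and noradrenaline, 3 of 4 were expressed, the largest share of any family with more than 1 member. That share was near the 75.3% of all genes with a symbol. ADRA1B, which couples to calcium release, had 10.3, 8.81 and 9.68 TPM (9.60 ± 0.751), the most even of the higher genes. ADRA2A and ADRA2B, which lower cyclic AMP, had 5.25, 7.76 and 3.46 TPM and 2.18, 1.53 and 2.63 TPM. Among beta adrenergic receptors, ADRB1, the main one of the heart, stayed under the limit in every library with 0.940, 0.686 and 0.995 TPM, and ADRB3, known from brown and white fat, had 0.652, 0.288 and 0.110 TPM. ADRA2C was represented by a model of only 65 bp, so its level cannot be read. For it 3 counts, taken as an approximate upper limit where 0 were seen, would still be 5.09 to 6.18 TPM. For the other 6 genes without a count the same limit lay between 0.0601 and 0.347 TPM, and these limits cover counting error only.

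Of the muscarinic receptors, which bind acetylcholine at targets of parasympathetic nerves and in brain, CHRM4 was expressed with 2.96, 2.42 and 3.40 TPM (2.93 ± 0.491). CHRM1 lay at the limit with 1.45, 1.07 and 0.925 TPM, and CHRM2, the main muscarinic receptor of the heart, and CHRM3, that of glands and smooth muscle, averaged 0.188 and 0.318 TPM.

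At gene starts, the marks followed the split by expression only in part. A peak was counted as reproducible when called in both replicates and sharing 50% of either length, and as present at a start when within 1 kb of it. H3K4me3 was present at the start of 58 of 73 receptor genes (79.5%), against 83.1% of genes with a symbol, and H3K27ac at 60 (82.2%), against 85.9%. Both marks were present at 58, H3K27ac alone at 2 (GABRP and DRD3), and neither at 13. Among receptor genes not expressed, 46 of 60 (76.7%) had H3K4me3 at the start, against 60.5% of the 3493 genes with a symbol that were not expressed. Among those expressed it was 12 of 13 (92.3%), against 90.5%. Receptor genes with H3K4me3 at the start and no expression were therefore 46 of 73 (63.0%), compared with 14.9% of genes with a symbol, and expressed receptor genes without it were 1 of 73 (1.37%), compared with 7.13%. The share marked was thus close to the background, and the share expressed was far below it.

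The marks were weaker than at most genes. Fold enrichment is the signal at a peak's summit over the local background estimated by the peak caller, and its mean over both replicates is given. Median H3K4me3 fold enrichment was 14.8 over the 58 receptor genes, compared with 47.9 over genes with a symbol, and GRM4 was the only receptor gene above 47.9. Median H3K27ac fold enrichment was 7.21 over 60 receptor genes, compared with 26.6, and CHRM4 alone exceeded it. Split by expression, median H3K4me3 was 22.0 at 12 expressed receptor genes, compared with 54.2 at expressed genes with a symbol, and 14.4 at 46 receptor genes not expressed, compared with 14.2 at genes with a symbol not expressed. Unexpressed receptor genes thus carried about the H3K4me3 of other unexpressed genes. The width of the H3K4me3 peak differed little, with a median of 2415.5 bp at receptor genes and 2589.5 bp at genes with a symbol. Across the 58 genes, H3K4me3 in replicate 1 and replicate 2 had a Spearman correlation of 0.888, and mean TPM and H3K4me3 one of 0.355, over points that share the same libraries and pools.

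**Figure D2:**
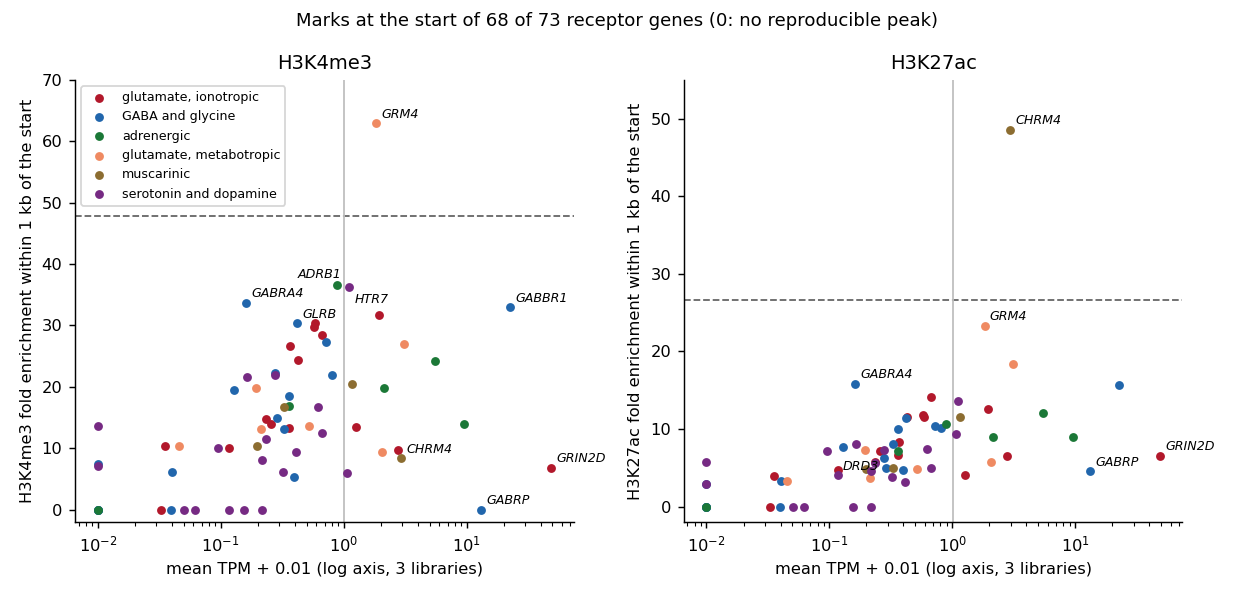
Fold enrichment of H3K4me3 (left) and H3K27ac (right) at the start of 68 of the 73 receptor genes, mean of 2 replicates, against mean TPM + 0.01 over 3 libraries on a log axis, with genes lacking a reproducible peak at 0. Dashed lines are medians over genes with a symbol (47.9 and 26.6) and the grey line is 1 TPM. GRM4 and CHRM4 are the only receptor genes above the dashed lines, and GABRP lies at 0 for H3K4me3 despite 13.1 TPM.

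The 10 receptor genes of highest H3K4me3 included both expressed and unexpressed genes, while over all 73 receptor genes 17.8% were expressed. GRM4 led with 67.6 and 58.3 in replicates 1 and 2 at a mean of 1.82 TPM. ADRB1 followed with 36.0 and 37.2 and HTR7 with 36.2 and 36.4, both near or under 1 TPM. GABRA4, an alpha subunit with 0.194, 0.195 and 0.0658 TPM in the 3 libraries, had 32.7 and 34.8, about as much as GABBR1 with 33.9 and 32.0 at 22.5 TPM. A similar mark thus stood at the model starts of a gene near the bottom and a gene near the top of the range of levels. GABBR1 also had a stronger H3K4me3 peak, of 43.5 and 46.0, inside the gene 3.98 kb from its model start. Whether transcription of GABBR1 begins there was not tested. GRIA1 had 30.6 and 32.9. GRIN2C had 28.8 and 32.0, with 0.756, 0.438 and 0.541 TPM. GLRB had 30.8 and 29.9, and GRIN3B had 28.0 and 31.3, with 0.630, 0.694 and 0.373 TPM.

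Some expressed receptor genes had unusual starts, among them GRIN2D and GABRP. At GABBR1, the second highest, H3K4me3 of 33.0 and H3K27ac of 15.7 covered the model's start. Besides its stronger H3K4me3 peak inside the gene, GABBR1 had a stronger H3K27ac peak there, of 21.7. At GRIN2D the H3K4me3 peak near the model's start, 282 bp upstream, had only 7.55 and 6.20. A much stronger one, of 117 and 124, ended 4.67 kb upstream together with H3K27ac of 91.1 and 82.2, and no other gene model starts within it. Measured from the start of GRIN2D, the nearest other starts are those of GRWD1, 17.0 kb downstream, and TMEM143, 19.4 kb upstream. The model's first base came from a lifted Tasmanian devil annotation, and whether transcription of GRIN2D begins at that stronger peak was not tested. GABRP, on scaffold 6, had no H3K4me3 peak within 100 kb of its start, the only receptor gene of which this was so. Its start carried H3K27ac of 5.29 and 3.88, and the nearest other gene start was 85.9 kb away. CHRM4 had the highest H3K27ac, 54.5 and 42.7, in a peak 13776 bp long that also reaches the start of MDK, 6.15 kb away, a growth factor gene at 222 ± 126 TPM, while H3K4me3 at its own start was 8.27 and 8.48. In 3 expressed genes, GRM6, ADRA2A and ADRA2B, another gene model starts within 1 kb, so that the mark could not be assigned to either, and this was so for none of the 46 unexpressed genes with the mark.

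The 15 receptor genes without H3K4me3 at the start included GABRP and DRD3, which had H3K27ac there. GABRA6, GABRR1, GABRR2, GLRA2, GRIK1, HTR1D, HTR2A, HTR3B, HTR4 and ADRA2C had neither mark and means of 0 to 0.208 TPM. For HTR2A and HTR1D a peak lay just beyond the limit, inside the gene, at 2.48 kb with 9.31 and 11.9 and at 1.83 kb with 3.81 and 5.37.

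H3K27ac peaks without H3K4me3, the usual mark of candidate enhancers, were counted within 100 kb of each start, any at the start itself included. They were fewer near receptor genes that were not expressed than near other genes not expressed. At least 1 lay within 100 kb of the start of 57 receptor genes (78.1%), against 93.8% of genes with a symbol, and 10 or more lay near 21 (28.8%), against 31.4%. The median was 3 near receptor genes and 6 near genes with a symbol. The difference lay with genes not expressed, with a median of 2 near receptor genes and 5 near genes with a symbol, while near expressed genes it was 7 and 6. The windows held 426 distinct peaks of this kind, with a median fold enrichment of 4.06, compared with 4.22 over all 69124. Receptor genes also had fewer neighbours, with a median of 1 other gene start within 100 kb, compared with 2, and longer spans, with a median of 65.3 kb, compared with 27.8 kb. Across the 73, the count of these peaks had a Spearman correlation of 0.433 with the number of other starts and 0.255 with mean TPM, over windows that partly overlap.

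The 10 receptor genes with the most H3K27ac-only peaks were DRD5 with 22, CHRM4 with 20, GRID1 with 19, GRM4 with 18, GRIK3, GABRA3 and GABRE with 17 each, and GRIN3B, GABRD and HTR1D with 16 each. Of these, CHRM4 and GRM4 were expressed and the other 8 were not, a share near the 17.8% expressed among all 73 receptor genes. DRD5, a dopamine receptor known from cortex and hippocampus, had the most although it had 0.156, 0.0474 and 0.261 TPM, with 4 other gene starts in its window. GRIK3 had 0.117, 0.444 and 0.114 TPM and no other start in its window, and GRID1 had 0.260, 0.50 and 0.313 TPM. GABRD had 0.570, 0.173 and 0.0530 TPM, and HTR1D had 0.0351, 0.0852 and 0 TPM with neither mark at its start. At the other end, 16 receptor genes had no such peak, among them GRIA4, GRM3, GRM7, CHRM3, DRD1 and HTR1A.

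**Figure D3:**
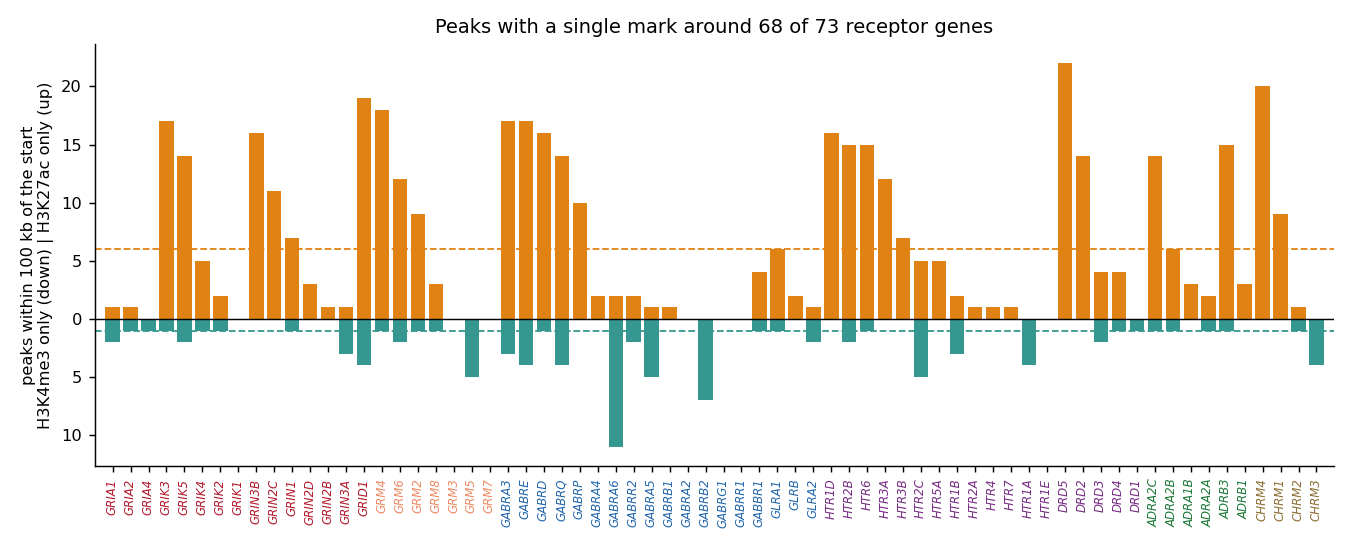
Number of reproducible peaks within 100 kb of the start of 68 of the 73 receptor genes, ordered by family: H3K27ac without H3K4me3 (upward bars) and H3K4me3 without H3K27ac (downward bars), with dashed lines at the medians over genes with a symbol (6 and 1). DRD5 reaches 22 H3K27ac-only peaks, while GABRA6 has 11 H3K4me3-only peaks.

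Neighbouring GABA-A genes showed contrasting surroundings. GABA-A genes lie in clusters in mammals, and on dunnart scaffolds, too, several lay within 1 Mb of another, such as GABRR1 and GABRR2 on scaffold 43. On scaffold 8, GABRQ, GABRA3 and GABRE lay 146 and 228 kb apart start to start, with no other gene start within 100 kb of any of them, and their windows together held 43 distinct H3K27ac-only peaks with a median fold enrichment of 3.45. Transcripts there were scarce, with means of 0.0302, 0.386 and 0.802 TPM. On scaffold 6, where GABRA6 and GABRB2 start 193 kb apart, the window of GABRA6 held 2 such peaks but 11 of H3K4me3 without H3K27ac, and that of GABRB2 held 0 and 7. On scaffold 1, those of GABRG1, GABRA2, GABRA4 and GABRB1 held 2 H3K27ac-only peaks and no H3K4me3-only peak, although each of the 4 had both marks at its start. GABRA4 and GABRB1 start 55.7 kb apart on opposite strands, with H3K4me3 of 33.7 and 27.3. GABRA5 on scaffold 2 had 1 H3K27ac-only and 5 H3K4me3-only peaks.

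**Figure D4:**
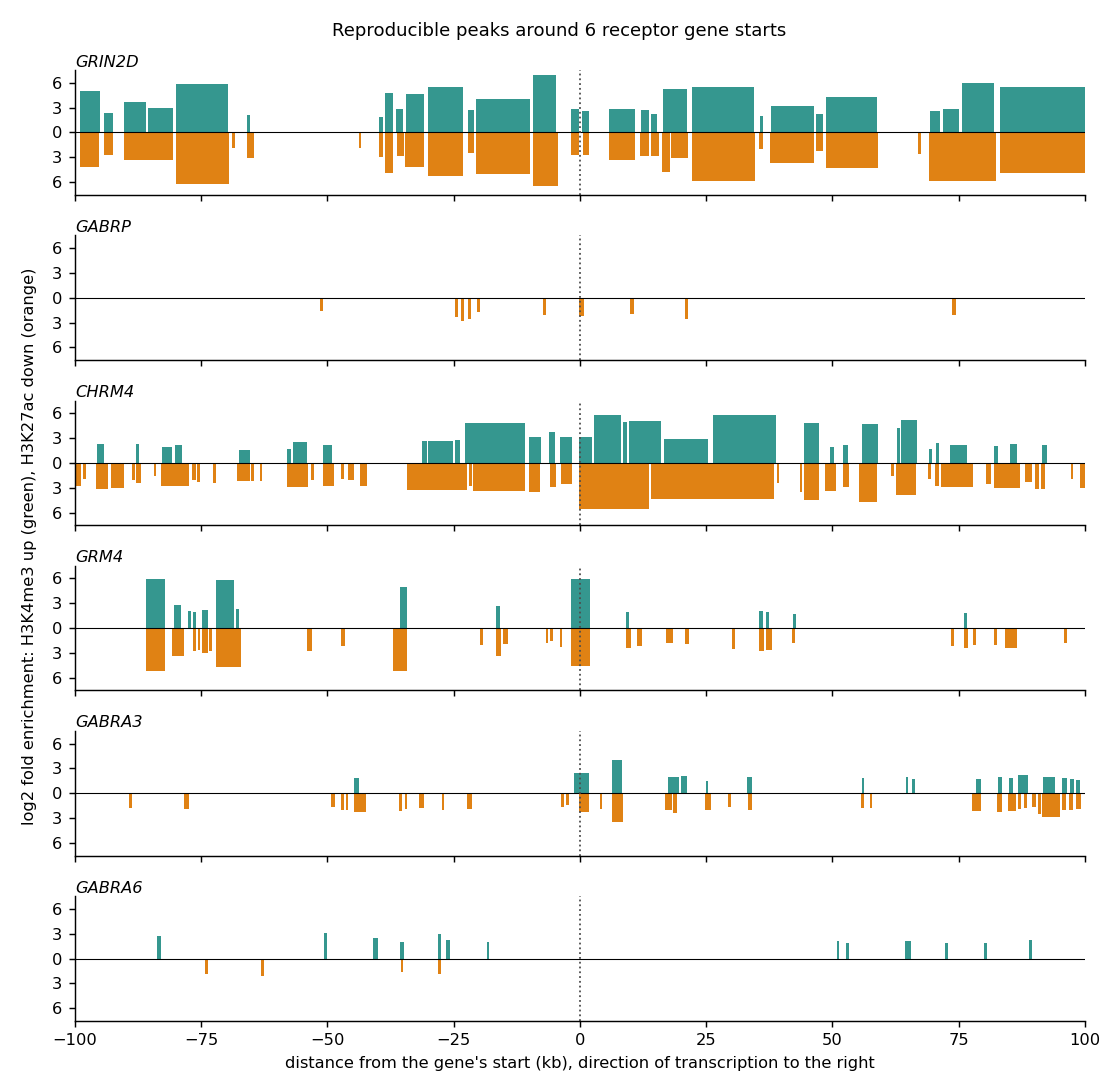
Reproducible peaks within 100 kb of the start of 6 receptor genes, with log2 fold enrichment of H3K4me3 upward and of H3K27ac downward and transcription running to the right. GRIN2D and CHRM4 lie in densely marked regions, GABRP has H3K27ac peaks only, GRM4 has strong marks at its start, and GABRA3 and GABRA6 contrast in having many and 2 H3K27ac-only peaks.

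Other receptor genes also neighboured each other. GRIA2 and GLRB start 144 kb apart on scaffold 209 and HTR3B and HTR3A 66.0 kb apart on scaffold 5, with DRD2 502 kb from HTR3B. ADRA2C and ADRB3 start 572 kb apart on scaffold 2.

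Within long genes the peaks were unevenly spread. Of the receptor genes, 26 spanned 100 kb or more, with a median of 9.04 H3K27ac-only peaks per Mb of gene, compared with 16.7 in 2645 genes with a symbol of that length. GRIK4 held 43, GRM4 37, GRID1 30 and GRIK3 27, which is 64.9, 116, 27.1 and 85.4 per Mb. GRM4 was expressed, whereas the other 3 were not. Peaks of H3K4me3 without H3K27ac had a median of 3.79 per Mb in receptor genes, compared with 0 in genes with a symbol of 100 kb or more. Both groups shared only that lower limit and were not matched for span, and the part of span in these differences was not tested.

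Other genes of transmitter signalling were counted against the same 75.3% of genes with a symbol, and the lists of transmitter handling, scaffolds and nicotinic subunits did not exceed it. Of measured genes for transmitter synthesis, release and uptake, 11 of 29 were above 1 TPM in all 3 libraries, a share well below it, led by GLUL (glutamine synthetase, 277 ± 64.0 TPM) and SLC6A9 (a glycine transporter, 43.0 ± 7.36 TPM). The enzymes that make GABA and serotonin were low, with GAD1 and GAD2 at 0.487 and 0.216 TPM, TPH1 at 0 counts and TPH2 at 1 count in all. Of receptor scaffolds and auxiliary subunits, 25 of 35 were expressed, a share near that background, led by GABARAP (351 ± 19.3 TPM), HOMER3 (114 ± 28.1 TPM) and DLG1 (71.9 ± 15.6 TPM), which also have roles outside synapses. Of nicotinic acetylcholine receptor subunits, 5 of 15 were expressed, again well below it, and these were the subunits of the muscle receptor: CHRNA1 (91.1 ± 10.1 TPM), CHRNB1 (78.7 ± 6.64 TPM), CHRND (29.2 ± 5.69 TPM), CHRNE and CHRNG. REST, which holds neuronal genes silent in other cells, and its corepressors were expressed in 9 of 9 cases, with HDAC2 at 169 ± 20.1 TPM, HDAC1 at 166 ± 14.5 TPM, RCOR2 at 93.1 ± 40.7 TPM and REST itself at 14.1 ± 3.47 TPM.

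The 3 libraries did not agree on the glutamate receptors. The 16 ionotropic genes summed to 82.6, 54.2 and 37.9 TPM in FP1, FP2 and FP3, and to 13.6, 9.85 and 5.25 TPM without GRIN2D. FP1 was the highest and FP3 the lowest library in 7 of 14 ionotropic glutamate genes with 10 counts or more (50.0%) and in 10 of 42 other receptor genes (23.8%), against 19.7% of genes with a symbol. Brain markers summed to 25.8, 17.1 and 9.45 TPM, of which EMX2 alone supplied 21.3, 14.6 and 8.34 TPM. Of the brain genes, EMX2, NEUROD6 and TBR1 were highest in FP1 and lowest in FP3, OLIG2 was highest in FP2, and GFAP had 0 counts. TBR1, a factor of cortical and olfactory bulb neurons, had 73, 13 and 0 counts. Markers of nerve glia summed to 68.3, 56.9 and 34.3 TPM and those of autonomic neurons to 6.03, 3.93 and 1.30 TPM, with 0 of 4 autonomic genes expressed in all libraries. Pan-neuronal markers were even in sum only, at 174, 189 and 163 TPM. Of them, ELAVL4, STMN2, SYP and GAP43 were highest in FP1, and TUBB3 in FP3, with 36.7, 45.4 and 52.4 TPM. ELAVL3, SNAP25, SYT1, RBFOX3, MAP2 and DCX were highest in FP2. Olfactory neuron markers summed highest in FP2, at 148, 242 and 186 TPM, of which OMP supplied 91.7, 159 and 122 TPM. Sensory neuron markers summed to 19.7, 27.8 and 28.5 TPM, with 4 of 9 expressed. The part of brain or nerve tissue in these differences was not tested.

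**Figure D5:**
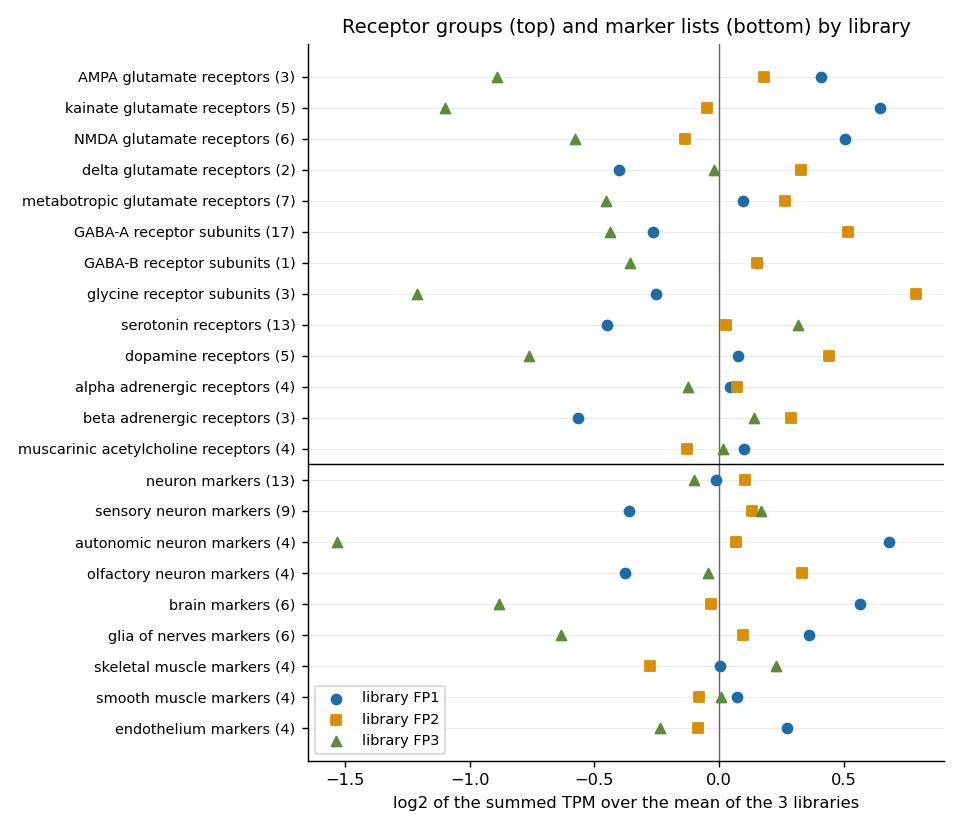
Summed TPM of each receptor group (above the line) and each marker list (below it) in FP1, FP2 and FP3, as the log2 ratio to the mean of the 3 libraries, with the number of genes in brackets. AMPA, kainate and NMDA subunits and the brain, autonomic and nerve glia markers are highest in FP1 and lowest in FP3, while the sum of pan-neuronal markers lies close to 0.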

How the data were processed

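RNA counts per gene were deposited by the authors as raw counts. Per the paper's methods and the submitters' processing notes, reads were trimmed with Trimmomatic (0.39), aligned with HISAT2 and counted over exons by strand with featureCounts of Subread (2.0.1), with an overlap of at least 10 bases. Gene models had been lifted from the Tasmanian devil with liftoff, so a gene start is the start of the lifted model. ChIP reads were trimmed with cutadapt (1.9.1), aligned with Bowtie2 (2.3.5.1) and filtered with SAMtools (1.9) and Picard (2.23.1). The authors called peaks against input with MACS2 (2.1.1) in each replicate. The deposited peak lists give fold enrichment, which is a ratio to the local background, and −log10 p and q-values, which are scores of the caller. Read depth of the ChIP libraries was not used here, since peak lists do not give it.

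Counts were divided by exon length and scaled to TPM, and genes were taken as expressed above 1 TPM in all 3 libraries. Peaks with q under 0.05 in both replicates that shared 50% of either length were kept, 108146 for H3K4me3 and 148724 for H3K27ac. A mark was at a start within 1 kb, and windows reached 100 kb either way. H3K27ac-only peaks shared no base with a reproducible H3K4me3 peak. The 11 genes on broken lines of the count table, none of them a receptor gene, were left out of expression. Python (3.11.15), pandas (2.3.3), bedtools (2.31.1) and, for an alternative scaling, edgeR (4.0.16) in R (4.3.3) were used, and the functions were tested on simulated data. With 1 condition no test was made, and SDs are over 3 libraries. The FP1, FP2 and FP3 columns carry no replicate number of the labels.

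The members and lists were chosen with earlier results of these data known. Values per library are given for genes above 1 TPM in all libraries, the 10 of highest H3K4me3 and the 10 with most H3K27ac-only peaks, and for a few others chosen after their values were seen. Some genes that the rule would name are not reported here and are not drawn in plots by gene. Of the other lists (neurons, sensory, autonomic and olfactory neurons, brain, retina, glia of nerves, skeletal and smooth muscle, endothelium, transmitter handling, scaffolds, nicotinic subunits, REST and corepressors), the highest genes are named, besides those at 0 or of defining role. Alternatives were other TPM limits, TMM scaling, a CPM rule, stricter q limits, other overlaps and start distances, and leaving out each library or replicate.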

Additional observations from a re-analysis of the deposited data

How the results depend on the processing

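Of 64 recomputed values, 58 stayed within 1.5 times of the reported one and 6 moved further. The 13 expressed receptor genes became 20 at a limit of 0.5 TPM, 5 at 5 TPM and 52 with at least 1 count in every library. Under that last rule the 46 genes with H3K4me3 and no expression became 10, and expressed genes without H3K4me3 numbered 4, against 1. Where a peak had to cover the start itself, that count was 2, GRIN2D being added to GABRP. TMM scaling gave 14 expressed genes (CHRM1 added), and over 2 CPM in at least 2 of 3 libraries gave 16 (GABRB1, GABRE and GRIA2 added).

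Leaving out each RNA library in turn gave 13 to 15 expressed genes, and leaving out each library or replicate gave 44 to 48 genes with H3K4me3 and no expression and 1 to 1 without the mark but expressed. Leaving out each ChIP replicate gave 58 to 60 genes with H3K4me3 at the start, 60 to 60 with H3K27ac and 63 to 64 with an H3K27ac-only peak within 100 kb. No paired analysis was possible because there was a single condition and the RNA columns carry no replicate number.

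With 1 stage and 1 tissue, no change between conditions can be read. Most receptor genes rested on few counts, and their order was not detectable at this depth. Gene starts came from another species' models, and peaks beyond 1 kb of them, as at HTR2A and HTR1D, were not counted at the start. Peaks near several starts cannot be assigned to a gene.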
